A study of Mus musculus with 28 samples.

Results

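The 9 chemokine and cytokine genes *Cxcl1*, *Cxcl2*, *Cxcl5*, *Cxcl16*, *Ccl20*, *Ccl25*, *Il18*, *Csf1* and *Tnf* were followed in mouse colon organoids by bulk RNA-seq. They were chosen as secreted factors that colon epithelium can make, and 8 of the 9 had a row among the 13519 genes counted. *Cxcl2* had no row in the counts used here and is not analysed. Organoids came from C57BL/6N donors that all carried the *Villin::CreERT2* transgene and *Apc* flox/flox, so every culture, controls included, could lose *Apc* on Cre activation. AC organoids (1 donor) carried these alone, PAC organoids (2 donors) added *Trp53* LSL-R172H/+, BAC organoids (2 donors) added *Braf* floxV600E/+, and BPAC organoids (2 donors) carried both. Organoids were treated with ethanol (EtOH), the vehicle, or 4-hydroxytamoxifen (4-HT) at 3.5 µM for 24 hours, with RNA taken 3 days later. Each donor gave 2 samples per treatment, numbered 1 and 2 in their titles apart from 1 BAC title. Samples of a donor with the same number are here taken as 1 culture, duplicate 1 or 2, a pairing that the titles do not state. The paper used organoids of 2 passages, and whether the numbers are these passages is not stated. This gave 28 samples from 14 cultures of 7 donors. The *Villin* promoter restricts Cre to epithelium, 4-HT was given with *Apc* loss in every genotype, and AC rests on 1 animal, so its 2 cultures show no spread between animals.

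Chemokines are small secreted proteins that draw leukocytes along a gradient. CXC ligands with an ELR motif, such as CXCL1 and CXCL5, act on CXCR2 of neutrophils. CCL20 draws CCR6-bearing lymphocytes and dendritic cells to the gut lining, CCL25 binds CCR9 of gut-homing T cells, and CXCL16 is a transmembrane chemokine for CXCR6. IL-18 is held in epithelium as a precursor that inflammasome caspases cut, CSF1 is the growth factor of macrophages, and TNF is an inflammatory cytokine that signals through NF-kB.

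Library totals ran from 20577276 to 40068718 counts. Among 4-HT samples of duplicate 1, BAC and BPAC totals (37438687 to 40068718) lay above those of AC and PAC (26594188 to 30306835). The 4-HT samples of both PAC donors in duplicate 1 stood apart. Each held *Xist* (834 and 636 counts) together with Y-linked transcripts (1822 and 1543 counts), while the other samples held either *Xist* or Y-linked transcripts and at most 8 counts of the other. They were also the closest pair of samples in any group, with a chi-square per degree of freedom of 2.38 against 8.53 for the next, so these 2 libraries may not be separate donors, and results are given without the PAC duplicate 1 cultures where that changes a call. Expression of *Trp53* with EtOH was 51.4 to 66.0 CPM (counts scaled to a common library size by TMM) in PAC and BPAC and 97.9 to 122 CPM in AC and BAC, with no overlap, as the labels place the LSL allele. With 4-HT it was 148 to 227 CPM in PAC and BPAC and 181 to 226 CPM in AC and BAC. *Apc* was 27.9 to 49.7 CPM with EtOH and 51.4 to 73.8 CPM with 4-HT, and *Braf* 20.2 to 27.9 and 20.3 to 27.3 CPM. Total *Braf* and *Apc* counts do not read the recombined alleles and check no label. All 11 epithelial markers were counted. Of 20 immune markers 4 were counted, with *Ptprc* among those without a row, and their summed level was 8.23 to 29.1 CPM. Of 19 stromal markers 4 were counted, at a summed 5.23 to 22.7 CPM. The epithelial sum was 18295 to 34754 CPM.

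The members lie on 7 chromosomes of GRCm38 as annotated by GENCODE, and each is annotated as protein coding. The ELR ligand genes share a stretch of chromosome 5, with *Cxcl5* (ENSMUSG00000029371) at chr5:90759360-90761624, *Cxcl1* (ENSMUSG00000029380) at chr5:90891241-90893115 and the uncounted *Cxcl2* (ENSMUSG00000058427) at chr5:90903871-90905938, all on the plus strand. *Ccl20* (ENSMUSG00000026166) lies at chr1:83116766-83119167 and *Ccl25* (ENSMUSG00000023235) at chr8:4325210-4360020, both on the plus strand. *Il18* (ENSMUSG00000039217) lies at chr9:50554827-50581840 on the plus strand. *Csf1* (ENSMUSG00000014599) at chr3:107741048-107760469, *Cxcl16* (ENSMUSG00000018920) at chr11:70453983-70459984 and *Tnf* (ENSMUSG00000024401) at chr17:35199381-35202007 are on the minus strand. *Cxcl1* transcripts shared no stretch of 50 bases with those of any other gene. *Cxcl16* overlaps *Zmynd15* on the other strand, and 16.9% of its 50-base stretches are shared with it, so *Cxcl16* counts are uncertain to that extent if strand was ignored. *Zmynd15* itself had at most 1.13 CPM. *Ccl25* shares 2.06% with *Elavl1* in the same way. *Elavl1* had 158 to 288 CPM, well above *Ccl25*, and rose with 4-HT in BAC (0.55, adjusted p = 2.8e-05) and BPAC (0.53, adjusted p = 3.94e-05).

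The 250 bases before the RefSeq start sites of *Ccl20*, *Cxcl1* and *Il18* are shown because these genes behaved differently below: *Il18* fell with 4-HT in BAC and BPAC, *Ccl20* fell in BAC, and *Cxcl1* passed no test. Capitals mark matches to the NF-kB (kB) motif on either strand, in RefSeq sequence of GRCm38.p6, plus strand, 5′ to 3′, at chr1:83116516-83116765, chr5:90890995-90891244 and chr9:50554450-50554699.
Ccl20: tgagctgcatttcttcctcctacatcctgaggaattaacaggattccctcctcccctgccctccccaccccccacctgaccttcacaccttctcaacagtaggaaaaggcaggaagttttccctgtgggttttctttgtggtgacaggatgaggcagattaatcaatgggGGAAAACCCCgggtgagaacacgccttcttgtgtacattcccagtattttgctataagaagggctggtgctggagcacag
Cxcl1: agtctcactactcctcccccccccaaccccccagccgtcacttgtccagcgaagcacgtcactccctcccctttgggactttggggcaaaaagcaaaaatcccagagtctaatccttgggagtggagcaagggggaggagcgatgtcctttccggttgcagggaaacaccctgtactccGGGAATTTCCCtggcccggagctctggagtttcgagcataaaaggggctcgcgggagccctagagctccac
Il18: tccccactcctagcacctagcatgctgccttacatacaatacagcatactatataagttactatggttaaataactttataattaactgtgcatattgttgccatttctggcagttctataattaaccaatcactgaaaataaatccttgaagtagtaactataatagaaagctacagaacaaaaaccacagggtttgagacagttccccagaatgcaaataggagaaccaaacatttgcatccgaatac
The match in *Ccl20* begins 80 bases before the start site. In *Cxcl1* 2 overlapping matches begin 71 and 70 bases before it. The *Il18* window held no match. The RefSeq start of *Il18* lies 127 bases upstream of the GENCODE start given above and that of *Cxcl1* 4 bases downstream of it, and the *Il18* sequence between the starts was not searched. The kB motif was found in 7.25% of 32851 such windows. The other motifs searched, on both strands, were AP-1 (TGANTCA, 6.75% of windows), an ETS motif (CCGGAAG, 6.91%) and the TCF core (CTTTGA, 13.8%), and none of them was found in these 3 windows. Among other members with a window, *Csf1* had a kB match 154 bases before its start, and the uncounted *Cxcl2* had overlapping matches at 97 and 96 bases. The windows of *Ccl25* and *Tnf* held no kB match. The TCF core was found in *Csf1* (21 bases before the start) and in *Ccl25* (68 bases). There was no window for *Cxcl5* and *Cxcl16*. A match is a string of letters and was not tested as a binding site or against the changes with 4-HT.

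With EtOH, before recombination, *Il18* and *Cxcl16* were by far the most abundant members per length. Mean levels per kilobase of exon over the 14 EtOH samples were 43.4 CPM per kb for *Il18* (28.6 to 65.5) and 37.2 for *Cxcl16* (22.8 to 49.1). *Tnf* followed at 4.28 CPM per kb (2.32 to 6.86). Next were *Ccl25* at 1.96 (1.37 to 3.20), *Ccl20* at 1.85 (0.512 to 2.87), *Cxcl1* at 1.39 (0.539 to 1.97) and *Cxcl5* at 1.28 (0.499 to 2.30). *Csf1* was lowest at 0.294 CPM per kb (0.0880 to 0.580). The place of *Ccl25* rests on its annotated exon length of 7445 bases. In CPM without that scaling its EtOH mean (14.6) was above that of *Tnf* (7.01). The ranges of *Il18* and *Cxcl16* overlapped and lay above those of all other members. The ranges of *Tnf* and *Ccl25* overlapped, as did those of the 4 genes from *Ccl25* to *Cxcl5* and those of *Cxcl5* and *Csf1*. Neighbours from *Tnf* down to *Csf1* were thus not apart beyond their spread. *Cxcl1*, *Cxcl5*, *Ccl20* and *Csf1* rested on few reads, from 7 to 233 counts per sample.

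**Figure D1:**
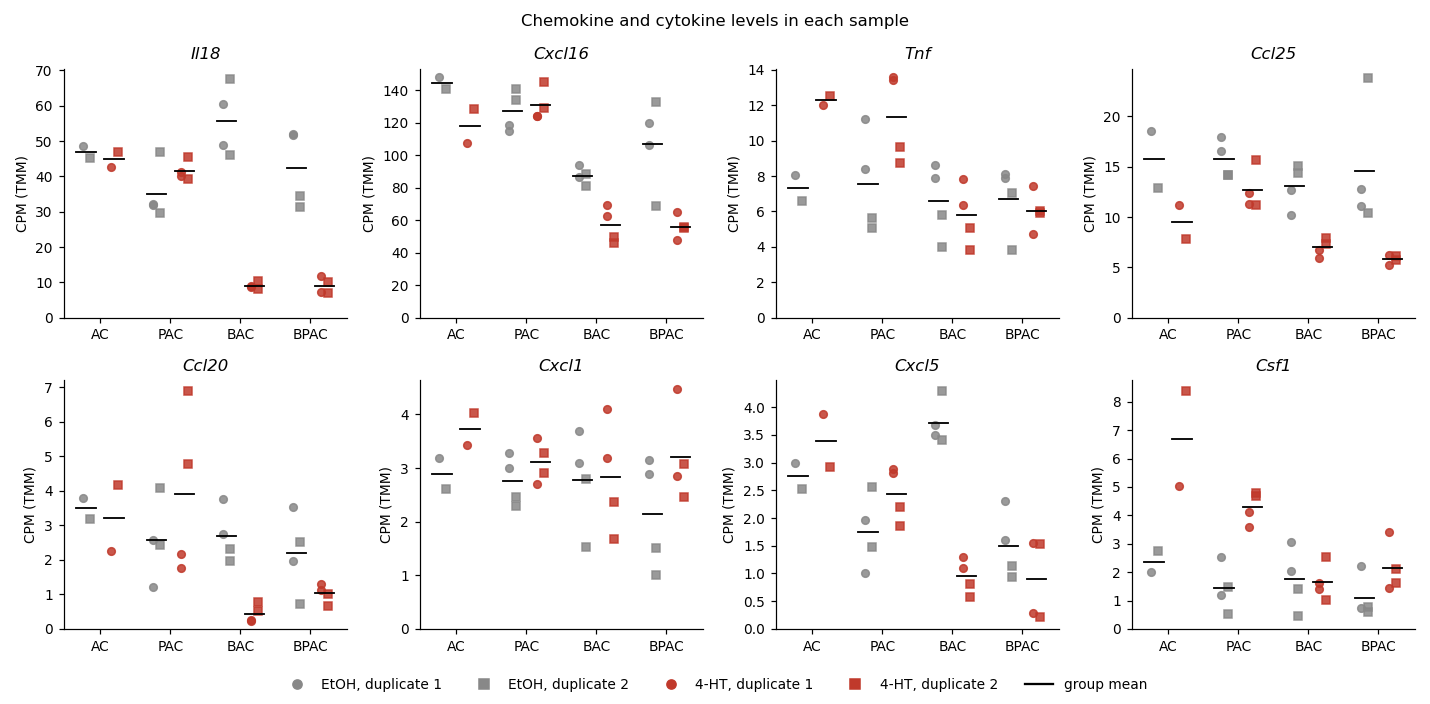
Level of each member in each of the 28 samples, in TMM-scaled CPM on a linear axis from 0, by genotype (x axis) and treatment (grey EtOH, red 4-HT). Circles are duplicate 1, squares duplicate 2 and bars group means; with 4-HT, *Il18* was 7.05 to 11.8 CPM in BAC and BPAC and 39.3 to 47.0 CPM in AC and PAC.

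*Il18* had the largest *Braf* difference in 4-HT change among the members. In BAC, EtOH levels were 48.9, 60.6, 67.5 and 46.1 CPM (donor 1 and donor 2 of duplicate 1, then of duplicate 2), and 4-HT levels of the same cultures were 8.74, 9.09, 10.4 and 8.04 CPM. In BPAC they were 51.8, 51.9, 31.3 and 34.6 CPM with EtOH and 11.8, 7.18, 10.01 and 7.05 CPM with 4-HT. Every 4-HT sample with the *Braf* allele was below every EtOH sample. In AC the levels were 48.6 and 45.3 CPM with EtOH and 42.7 and 47.0 CPM with 4-HT, and in PAC 31.8, 32.1, 29.5 and 46.9 CPM with EtOH and 41.1, 40.1, 45.5 and 39.3 CPM with 4-HT, so the treatments overlapped. *Il18* fell by 2.62 on the log2 scale in BAC (SE 0.19, adjusted p = 2.4e-10, edgeR quasi-likelihood test) and by 2.23 in BPAC (SE 0.19, adjusted p = 9.14e-10). The change was -0.06 in AC (adjusted p = 0.902) and 0.24 in PAC (adjusted p = 0.297). The difference between genotypes with and without the allele was -2.52 (95% interval -2.93 to -2.10, adjusted p = 6.85e-08), and it passed the threshold in all 32 alternative analyses, between -2.70 and -2.36. Fewer cells of a type and less RNA per cell cannot be told apart in bulk RNA, for *Il18* or any other member.

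*Il18* overlaps *Bco2* and *Tex12* on the other strand within its gene span, without a shared 50-base stretch of transcript. *Bco2*, a carotenoid-cleaving enzyme, was also among the genes most like *Il18* over the 28 samples, and its difference in 4-HT change with the *Braf* allele was -1.52 (adjusted p = 8.12e-05). *Tex12* had at most 1.87 CPM and a difference of -2.27 (adjusted p = 0.0150). Whether reads in introns were counted is not known.

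*Ccl20*, the CCR6 ligand, was low and fell in BAC. BAC cultures had 2.76, 3.76, 2.32 and 1.96 CPM with EtOH and 0.257, 0.236, 0.770 and 0.509 CPM with 4-HT, and BPAC cultures 1.98, 3.52, 0.727 and 2.52 CPM with EtOH and 1.14, 1.31, 0.668 and 1.03 CPM with 4-HT. AC had 3.79 and 3.20 CPM with EtOH and 2.26 and 4.17 CPM with 4-HT, and PAC 2.58, 1.202, 2.42 and 4.09 CPM with EtOH and 2.17, 1.77, 4.77 and 6.88 CPM with 4-HT. All 8 cultures with the allele went down, and 4 of the 6 without it went up. On the log2 scale the change was -2.65 in BAC (SE 0.50, adjusted p = 9.91e-05), and the BPAC value was -1.06 (SE 0.46, adjusted p = 0.0532). The *Braf* difference was -2.09 (95% interval -3.14 to -1.04, adjusted p = 0.00694), but it missed the threshold in 19 of 32 alternatives, with adjusted p from 0.00074 to 0.119. Within BAC the values were larger in duplicate 1 (-3.11 and -3.64) than in duplicate 2 (-1.51 and -1.81), and the *Braf* difference was -2.09 in duplicate 1 alone (adjusted p = 0.0152) and -1.95 in duplicate 2 alone (adjusted p = 0.119).

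*Cxcl16*, the transmembrane CXCR6 ligand, fell less but at a high read depth. BAC cultures had 86.5, 93.9, 81.3 and 88.2 CPM with EtOH and 69.6, 62.5, 46.0 and 49.7 CPM with 4-HT. BPAC cultures had 106, 120, 68.9 and 133 CPM with EtOH and 48.1, 64.9, 56.0 and 55.4 CPM with 4-HT. In AC, 148 and 141 CPM with EtOH stood against 107 and 129 CPM with 4-HT, and in PAC 119, 115, 141 and 134 CPM against 124, 124, 145 and 129 CPM. Each of the 8 cultures with the allele went down, with changes of -1.26 to -0.30, the AC cultures had -0.47, inside that range, and -0.13, and the PAC cultures stayed between -0.06 and 0.11. *Cxcl16* passed the test in BAC (-0.62, SE 0.15, adjusted p = 0.00111) and in BPAC (-0.93, SE 0.15, adjusted p = 9.97e-06). The *Braf* difference was -0.65 (95% interval -0.99 to -0.31, adjusted p = 0.00924), close to the threshold of 0.01. It missed the threshold in 24 of 32 alternatives, with values between -0.77 and -0.53, and without the PAC duplicate 1 cultures it was -0.63 (adjusted p = 0.0309). With EtOH, *Cxcl16* was 68.9 to 133 CPM with the allele and 115 to 148 CPM without it, a log2 difference of -0.49 that did not pass (adjusted p = 0.0788). It passed with DESeq2 (-0.49, adjusted p = 0.00994) and without BPAC donor 2 (-0.63, adjusted p = 0.00361).

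*Cxcl5*, a neutrophil-attracting ligand, fell in BAC and split by donor in BPAC. BAC cultures went from 3.49, 3.68, 3.41 and 4.29 CPM with EtOH to 1.11, 1.30, 0.805 and 0.577 CPM with 4-HT. BPAC cultures of donor 1 had 2.30 and 0.929 CPM with EtOH and 1.55 and 1.54 CPM with 4-HT, and those of donor 2 had 1.60 and 1.13 CPM with EtOH and 0.285 and 0.217 CPM with 4-HT. Without the allele, 4-HT levels were 1.86 to 3.87 CPM (median 2.84), against 0.217 to 1.55 CPM (median 0.955) with it. *Cxcl5* passed in BAC (-1.95, SE 0.43, adjusted p = 0.000535) and not in BPAC (-0.72, SE 0.45, adjusted p = 0.172). Without BPAC donor 1 the BPAC value was -2.40 (adjusted p = 0.000222), so that donor decides the BPAC call. The *Braf* difference was -1.72 (95% interval -2.70 to -0.74, adjusted p = 0.0163), and with the culture as a block it was -1.87 (adjusted p = 0.00494) and passed. It passed in 6 of 32 alternatives, the block among them, with values over all 32 between -2.56 and -1.38.

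*Ccl25*, the CCR9 ligand best known from small intestine, fell in BAC and BPAC, and was also lower with 4-HT in both AC cultures. BAC went from 12.7, 10.2, 14.3 and 15.1 CPM to 6.76, 5.93, 7.35 and 7.91 CPM, and BPAC from 11.1, 12.8, 10.4 and 23.8 CPM to 5.27, 6.26, 5.74 and 6.09 CPM. AC went from 18.6 and 12.9 CPM to 11.2 and 7.80 CPM, and PAC from 17.9, 16.6, 14.2 and 14.2 CPM to 12.4, 11.3, 15.7 and 11.2 CPM. *Ccl25* passed in BAC (-0.91, SE 0.21, adjusted p = 0.000709) and BPAC (-1.32, SE 0.21, adjusted p = 9.22e-06). The values in AC (-0.73, adjusted p = 0.0864) and PAC (-0.32, adjusted p = 0.233) did not pass. The changes of the 8 cultures with the allele (-1.96 to -0.77) lay below those of the 6 without it (-0.73 to 0.15), while the *Braf* difference of -0.59 did not pass (95% interval -1.06 to -0.12, adjusted p = 0.0845).

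*Cxcl1*, the other counted ELR ligand, passed no test. With 4-HT it was 2.70 to 4.03 CPM (median 3.35) without the allele and 1.68 to 4.47 CPM (median 2.96) with it, and the groups overlapped fully. Its changes were -0.28 to 0.61 without the allele and -0.23 to 1.54 with it. The *Braf* difference was 0.06 (95% interval -0.65 to 0.76, adjusted p = 0.940), and the interval is wide on both sides. *Cxcl5* and *Cxcl1*, which lie near each other on chromosome 5, gave different values in the same samples, and the difference between the 2 genes was not tested.

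*Csf1*, the macrophage growth factor, was higher with 4-HT in every AC, PAC and BPAC culture. AC went from 1.99 and 2.73 CPM to 5.03 and 8.38 CPM, and PAC from 2.54, 1.202, 0.522 and 1.49 CPM to 4.11, 3.60, 4.68 and 4.79 CPM. BAC went from 2.03, 3.06, 1.42 and 0.465 CPM to 1.41, 1.61, 2.52 and 1.02 CPM, with the duplicate 1 cultures down and the duplicate 2 cultures up. BPAC went from 0.749, 2.21, 0.767 and 0.588 CPM to 1.45, 3.40, 1.60 and 2.11 CPM. *Csf1* rose in PAC (1.56, SE 0.46, adjusted p = 0.00971), which was the only rise called among the members, and it was not called in 18 of 33 alternatives. Without the PAC duplicate 1 cultures the PAC value was 2.21 (adjusted p = 0.0592). The values were 1.502 in AC (adjusted p = 0.102), 1.00 in BPAC (adjusted p = 0.0750) and -0.10 in BAC (adjusted p = 0.861), while the mean of the 4 BAC cultures' own changes was 0.11. The *Braf* difference of -1.08 did not pass (95% interval -2.13 to -0.04, adjusted p = 0.158).

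*Tnf* was higher with 4-HT in each of the 6 cultures without the allele. AC went from 8.05 and 6.60 CPM to 12.04 and 12.5 CPM, and PAC from 11.2, 8.42, 5.60 and 5.04 CPM to 13.6, 13.4, 9.64 and 8.73 CPM. BAC went from 7.88, 8.65, 3.99 and 5.78 CPM to 7.84, 6.37, 3.85 and 5.09 CPM, and BPAC from 7.87, 8.13, 3.80 and 7.06 CPM to 4.71, 7.45, 5.94 and 6.03 CPM. With the allele 7 of 8 cultures were lower with 4-HT, with log2 changes of -0.73 to -0.01, and 1 was higher, at 0.64. No *Tnf* change within a genotype passed, with 0.74 in AC (adjusted p = 0.195) and 0.58 in PAC (adjusted p = 0.0985), and the *Braf* difference was -0.83 (95% interval -1.46 to -0.19, adjusted p = 0.0706). With the culture as a block, the PAC change was 0.62 (adjusted p = 0.00576) and the *Braf* difference -0.83 (adjusted p = 0.00414), and both passed.

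**Figure D2:**
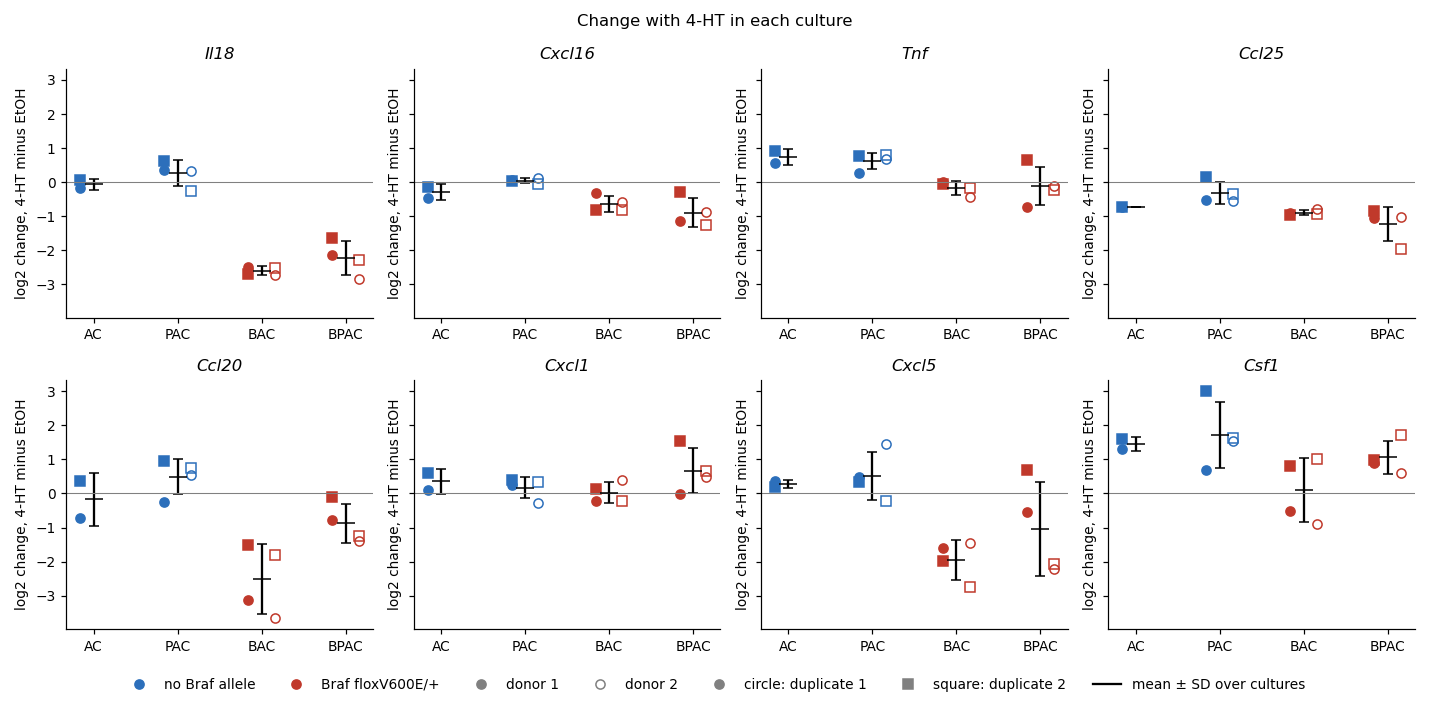
Log2 change of TMM-scaled CPM (prior count 2) from EtOH to 4-HT in each of the 14 cultures, by genotype on the x axis. Blue is without and red with *Braf* floxV600E/+, filled donor 1, open donor 2, circles duplicate 1, squares duplicate 2, black the mean ± SD over cultures; *Il18* and *Ccl25* were the members whose 8 red points all lie below the 6 blue ones.

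Counted over members, edgeR called a 4-HT change for 0 of 8 in AC and, higher, for *Csf1* in PAC. In BAC it called 5, all lower (*Il18*, *Ccl20*, *Cxcl5*, *Ccl25*, *Cxcl16*), and in BPAC 3, all lower (*Il18*, *Ccl25*, *Cxcl16*), at an adjusted p under 0.01. In AC, 2 members (*Csf1*, *Ccl25*) had an unadjusted p under 0.05 and DESeq2 called 0. Of all genes, AC had 3% called higher and 4.25% lower, PAC 11.2% and 12.2%, BAC 20.3% and 21.5%, and BPAC 22% and 23%. The median log2 change of the 8 members was 0.12 in AC and 0.36 in PAC, against -0.76 in BAC and -0.83 in BPAC, and that of all genes lay between -0.04 and 0.01. The comparisons are not independent, since each genotype contrast uses its own EtOH samples and the *Braf* difference uses them all.

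For the *Braf* difference in 4-HT change, 3 of 8 members were called, all lower (*Il18*, *Ccl20*, *Cxcl16*), where 3.05% of all genes were called higher and 3.55% lower. With the culture as a block 5 were called, *Tnf* and *Cxcl5* being added. Without the PAC duplicate 1 cultures 2 were called, *Il18* and *Ccl20*. With donor counts summed fewer were called, as given further below. Genes called higher and lower among all 13519 were 413 and 480 in the main fit and 880 and 1011 with the block. They were 377 and 413 without the PAC duplicate 1 cultures, and 295 and 220 with donor sums. In the main fit the median of the 8 was -0.95, and that of all genes -0.01. *Il18* and *Ccl25* had changes that did not overlap between cultures with and without the allele, both lower with it, a pattern found in 4.47% of all genes in that direction and in 4.9% in the other.

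The level with 4-HT differed for 7 of 8 members, all lower with the allele, where 15.6% of all genes were called higher and 14.6% lower. The log2 differences were -2.39 for *Ccl20*, -2.25 for *Il18*, -1.63 for *Cxcl5*, -1.51 for *Csf1*, -1.14 for *Cxcl16*, -0.995 for *Tnf* and -0.78 for *Ccl25*, with adjusted p between 1.23e-10 and 0.000904. *Cxcl1* stood at -0.17 (adjusted p = 0.595). In 6 of the 8 (*Il18*, *Ccl20*, *Cxcl5*, *Csf1*, *Cxcl16*, *Tnf*) the 8 samples with the allele lay wholly below the 6 without it, against 9.36% of all genes in that direction and 11.7% in the other. The same 7 passed without the PAC duplicate 1 cultures. Over all genes that set gave 2052 calls higher and 1954 lower, against 2104 and 1980 in the main fit. In duplicate 2 alone, where AC has 1 sample per treatment, fewer members passed and fewer of all genes did. With EtOH edgeR called 0 of 8, with 1 member (*Cxcl16*) at an unadjusted p under 0.05, and DESeq2 called that 1. Of all genes, 0.0222% were called higher and 0.0074% lower with EtOH.

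**Figure D3:**
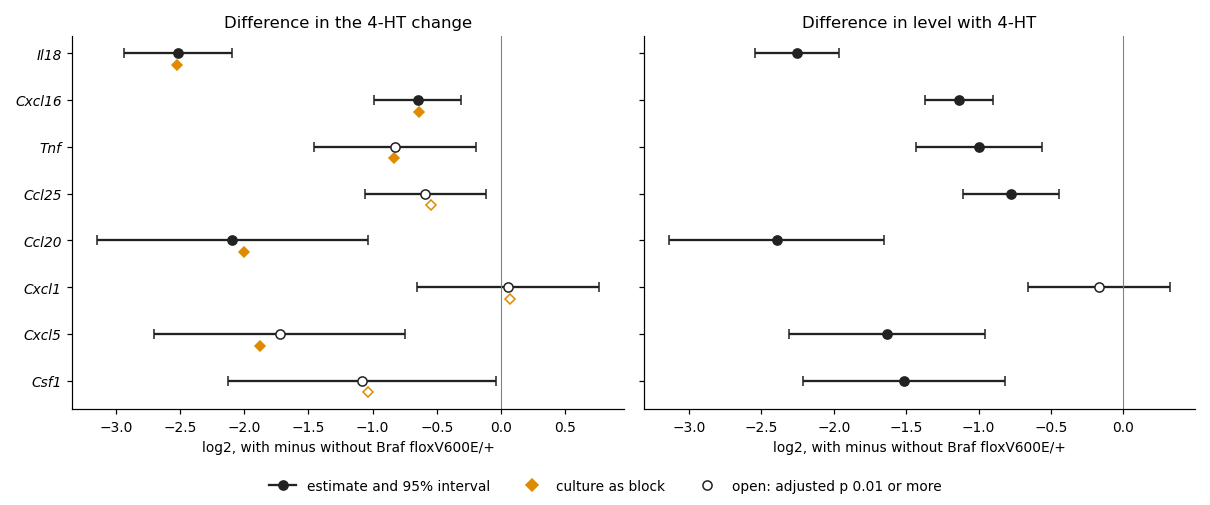
Log2 difference between genotypes with and without *Braf* floxV600E/+ in the 4-HT change (left) and in the level with 4-HT (right), by member on the y axis. Circles and bars are edgeR estimates with 95% intervals, orange diamonds the fit with the culture as a block, and open symbols an adjusted p of 0.01 or more; on the right all members but *Cxcl1* are filled and below 0.

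With the 7 donors as units, 4 with and 3 without the allele, the mean changes did not overlap for 7 of 8 members, all lower with it, a pattern found in 17.1% of all genes in that direction and in 18.2% in the other. Without the PAC duplicate 1 cultures it held for 6 of 8, with *Cxcl5* overlapping, and in either duplicate alone for 5 of 8, with *Cxcl16* and *Csf1* overlapping in duplicate 1 and *Cxcl5* and *Csf1* in duplicate 2 (*Cxcl1* overlapped throughout). No share of all genes was taken for these smaller sets. The two-sided exact permutation test over 35 splits cannot give a p under 0.0286. That value was reached by *Il18* (difference -2.57), *Tnf* (-0.80), *Cxcl16* (-0.70) and *Ccl25* (-0.60). *Ccl20* (-1.97), *Cxcl5* (-1.93) and *Csf1* (-1.04) gave an exact p of 0.0571, and *Cxcl1* (0.11) gave an exact p of 0.657. These are 8 tests without adjustment, and the 2 PAC donors were not clearly separate in duplicate 1. Within duplicate 1 the *Il18* difference was -2.71 and within duplicate 2 it was -2.42, each with an exact permutation p of 0.0286. BPAC donor 1 had the smallest *Il18* change among donors with the allele (-1.88), against -2.56 in BPAC donor 2 and -2.58 and -2.62 in the BAC donors.

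For the *Trp53* difference in 4-HT change, edgeR called 0 of 8 members, and each adjusted p was 1.00. *Ccl20* had an unadjusted p under 0.05, the only member that did, and DESeq2 called 0. Its estimate was 1.15 (95% interval 0.10 to 2.20), with BAC at -2.65 and BPAC at -1.06. Among all genes 0.0074% were called in each direction.

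Over the 28 samples, the genes most like each member by Pearson r of log2 CPM were taken from 13478 genes with at least 10 counts on average. *Il18* was most like *C4bp* (r = 0.94), *Bco2* (0.93) and *Blnk* (0.93). *Cxcl16* was most like *Syt12* (0.94), *Pglyrp1* (0.94) and *AW112010* (0.93), and *Ccl25* like *Slc7a9* (0.93), *Aamdc* (0.93) and *Enpep* (0.93). *Ccl20* followed *Gkap1* (0.86), *Etfbkmt* (0.85) and *Dpp7* (0.85), and *Tnf* followed *Bik* (0.87), *Ccn1* (0.84) and *Nrep* (0.84). *Cxcl5* was near *Ces1b* (0.82), *Il18* (0.81) and *Tnip3* (0.80). *Csf1* was near *Sertad4* (0.82), *Sall2* (0.81) and *Sorcs2* (0.81), and *Cxcl1* near *Avpi1* (0.76), *Krt18* (0.75) and *Gm19557* (0.74). Among members, *Il18* had r = 0.81 with *Cxcl5*, 0.80 with *Ccl20* and 0.79 with *Cxcl16*, while *Cxcl1* had r = -0.07 with *Il18*. The points share donors, treatments and depth, and no p is given.

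Of 30 other chemokine ligands 11 were counted. For the *Braf* difference in 4-HT change 2 of them were called, both lower, where 3.05% of all genes were called higher and 3.55% lower. *Ccl6* had a mean of 27.97 CPM with 4-HT without the allele and 3.35 CPM with it (difference in change -2.58, adjusted p = 9.01e-06). *Ccl28*, an epithelial chemokine of mucosal surfaces, fell in PAC, BAC and BPAC and differed by -1.35 (adjusted p = 0.00101). Of 40 other cytokines 16 were counted, with 2 called higher and 1 lower, beside the same shares of all genes. *Tnfsf10*, which encodes the death ligand TRAIL, differed by -2.93 (adjusted p = 6.24e-06), and its mean was 2.66 CPM with 4-HT without the allele and 0.385 CPM with it. *Tnfsf9*, the ligand of the T-cell costimulator CD137, differed by 1.53 (adjusted p = 0.000305), and *Tgfb1* by 0.81 (adjusted p = 0.00520). So the calls among these secreted factors went in both directions.

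Of 14 receptor genes for these ligands 7 were counted, and *Cxcr2*, *Cxcr6*, *Ccr6*, *Ccr9* and *Csf1r* were not among the rows. None of the 7 was called for the *Braf* difference by edgeR. The median over the 7 was -0.75, with 3 at an unadjusted p under 0.05, 0 called by DESeq2 and 1 (*Il18rap*) with the culture as a block. The level with 4-HT was called lower with the allele for 4 of the 7, against 14.6% of all genes. *Il18r1* and *Il18rap*, the IL-18 receptor chains, are named after their values were seen. *Il18r1* had a mean of 1.88 CPM with 4-HT without the allele and 0.643 CPM with it (difference in change -1.49, adjusted p = 0.0342). For *Il18rap* the means were 3.09 and 0.810 CPM (-1.37, adjusted p = 0.0832). The TNF receptors *Tnfrsf1a* (0.10, adjusted p = 0.414) and *Tnfrsf1b* (0.30, adjusted p = 0.225) were the most abundant. *Tnfrsf1b* rose with 4-HT in each of the 4 genotypes, with log2 values of 0.87 (AC), 0.91 (PAC), 1.22 (BAC) and 1.17 (BPAC).

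Of 17 genes for cytokine processing, which include inflammasome sensors and the caspases that mature IL-18, 15 were counted. With 4-HT, edgeR called 9 lower in BAC, 10 in BPAC, 4 in PAC and 1 in AC, and none higher in any genotype, where 21.5%, 23%, 12.2% and 4.25% of all genes were called lower. For the *Braf* difference, where 3.05% of all genes were called higher and 3.55% lower, 3 were called, all lower. These were the inflammasome sensors *Nlrp1b* (-2.39, adjusted p = 0.00819) and *Nlrp6* (-0.67, adjusted p = 0.00216), and *Casp4* (-0.92, adjusted p = 0.00122), a caspase that senses lipopolysaccharide. *Nlrp6* had a mean of 189 CPM with 4-HT without the allele and 132 CPM with it, and *Nlrp1b* was low, at 0.749 and 0.245 CPM. The median over the 15 was -0.36 for the *Braf* difference, against -0.01 for all genes.

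Of 49 NF-kB pathway genes 48 were counted. For the *Braf* difference 1 was called higher and 5 lower, with a median of -0.08, where 3.05% of all genes were called higher and 3.55% lower. *Tlr2*, a receptor for bacterial lipoproteins, differed by -1.12 (adjusted p = 0.000161). *Tnfaip3*, an inhibitor of the pathway, differed by -0.66 (adjusted p = 0.00554) and *Relb*, an NF-kB subunit, by -0.59 (adjusted p = 0.00368). *Ripk2*, the kinase downstream of NOD receptors, differed by 0.84 (adjusted p = 0.000431). Of 12 mRNA decay genes, all counted, none was called for the *Braf* difference by edgeR, with 3 at an unadjusted p under 0.05 and 1 (*Hnrnpd*, higher) called by DESeq2, and the most abundant were *Zfp36l2* (0.00, adjusted p = 0.993) and *Khsrp* (0.14, adjusted p = 0.541).

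**Figure D4:**
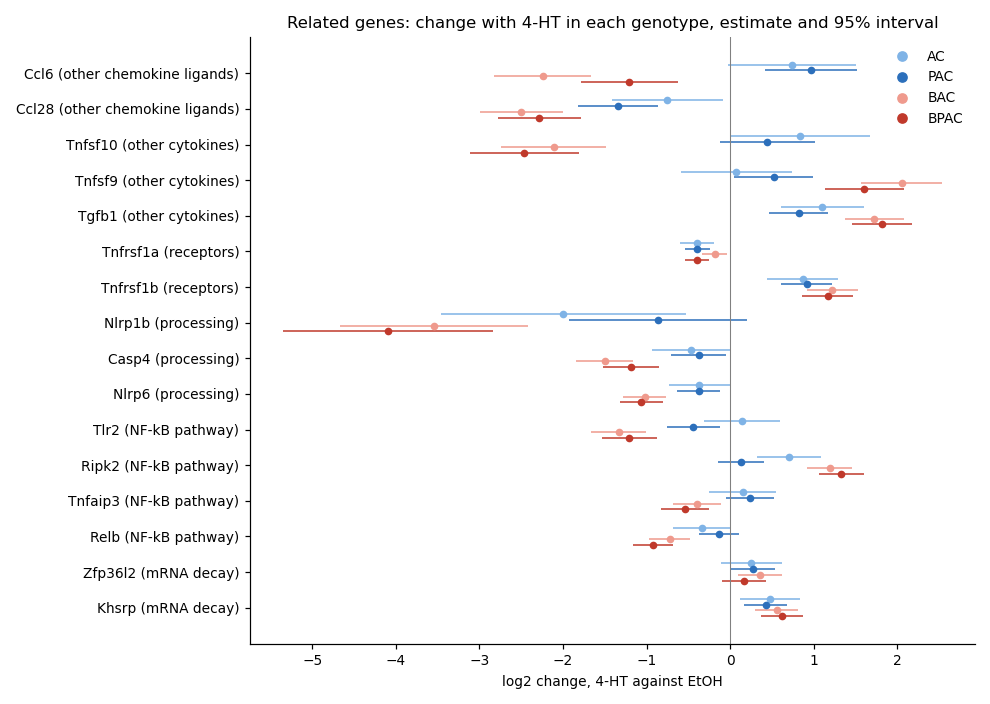
Log2 change from EtOH to 4-HT (x axis) of the named related genes (y axis, with their list in brackets) in the 4 genotypes, as edgeR estimates with 95% intervals. *Tnfsf10*, *Ccl6* and *Tlr2* lie lower in BAC and BPAC (reds) than in AC and PAC (blues), and *Tnfsf9* and *Ripk2* lie higher.

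Markers of cell identity moved with 4-HT as well, and their part in the members' values was not tested. Of the 13 counted small intestine markers 2 were called lower for the *Braf* difference, the brush border enzymes *Sis* (-2.52, adjusted p = 0.00156) and *Anpep* (-2.06, adjusted p = 0.00807). Their list's summed level with 4-HT was 547 to 906 CPM in AC, 720 to 824 CPM in PAC, 289 to 358 CPM in BAC and 253 to 385 CPM in BPAC, and 669 to 1139 CPM with EtOH over all genotypes. Of 13 counted colon markers 1 was higher (*Ly6g*, 1.60, adjusted p = 3.5e-05) and 1 lower (*Mettl7b*, -0.77, adjusted p = 0.00477), and the sum fell from 13569 to 22702 CPM with EtOH to 4003 to 10824 CPM with 4-HT. Of the 11 epithelial markers, 7 passed as lower with 4-HT in BAC (median log2 change -0.49) and 7 in BPAC (median -0.61), against 4 in PAC (median -0.36) and 2 in AC (median -0.26), and none passed as higher. Of all genes 21.5%, 23%, 12.2% and 4.25% were called lower in BAC, BPAC, PAC and AC, and 20.3%, 22%, 11.2% and 3% higher. The sum of the 11 epithelial markers with 4-HT was 20882 to 24538 CPM without the allele and 18295 to 24556 CPM with it. None was called for the *Braf* difference by edgeR, while 4 had an unadjusted p under 0.05, DESeq2 called 1 (*Cldn3*) and the fit with the culture as a block 3 (*Cldn3*, *Cdh1*, *Cdx1*, named after their values were seen), all lower, with *Krt8* at -0.09 (adjusted p = 0.821) and *Krt19* at -0.21 (adjusted p = 0.470). Of the 4 immune and 4 stromal markers edgeR called none for the *Braf* difference, with 1 of each at an unadjusted p under 0.05, DESeq2 calling 0 and the block 1 stromal marker (*Pdgfrb*). The immune values were -0.01 for *Lcp1* (adjusted p = 0.992) and -0.16 for *Cd68* (adjusted p = 0.809), and the stromal values *Vim* at 0.54 (adjusted p = 0.301) and *Pdgfrb* at -1.57 (adjusted p = 0.0388). The summed immune level with 4-HT was 16.2 to 29.1 CPM without the allele and 15.1 to 23.0 CPM with it.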

How the data were processed

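RNA of 28 colon organoid samples was sequenced by the authors, who aligned the reads to GRCm38 with STAR (2.5.2b per the submitters' processing notes, which also name Trimmomatic 0.39). The authors deposited raw read counts per gene, whole numbers without normalization, for 13519 genes. The counting program, its annotation and its strand setting are not given in the sources used here. The 95% intervals come from the edgeR fit and rest on the spread between samples. Symbols were matched through GENCODE for 13479 genes.

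Totals were 20577276 to 40068718 counts per sample. Counts were scaled by TMM and tested with the edgeR 4.0.16 quasi-likelihood test (R 4.3.3) on the 8 groups, with p-values adjusted by Benjamini-Hochberg over all 13519 genes and a threshold of 0.01. The *Braf* difference is the mean of BAC and BPAC minus the mean of AC and PAC, and the *Trp53* difference that of PAC and BPAC minus AC and BAC. Levels are CPM, per kilobase of GENCODE exon where genes are compared. Per-culture changes used log2 CPM with a prior count of 2. Named genes were all members, the 3 genes most like each, and from each list up to 4 with the largest *Braf* difference past the threshold, or else the 2 most abundant. *Bco2* and *Tex12* were named, after their values were seen, because they overlap *Il18*. Members and lists were chosen with earlier results of these data known.

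Samples of the same culture share a donor, so the culture was also fitted as a block. The correlation of deviations within a culture was 0.245 to 0.532 over 12 cultures. For PAC replicate 1 (duplicate 1, donor 1) it was below the value with another culture (0.260), and for PAC replicate 2 (duplicate 1, donor 2) it was 0.459 against 0.440. Cultures of a donor are not separate animals, and p-values then measure partly technical spread. For 1 BAC sample the label has no number, and it was used as duplicate 1. Alternatives were limma-voom (limma 3.58.1), DESeq2 1.42.0, other scalings and filters, the block, the duplicate as covariate, donor sums, each duplicate alone, each culture or donor left out, and thinning. Each tool was tested on simulated data. Figures used matplotlib 3.10.9.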

Additional observations from a re-analysis of the deposited data

Results flagged for a closer look

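Over the 72 groups of 4 tested for a sample far from the others, chance flags about 1 in 20, and 2 were flagged. *Il18* in PAC with EtOH was 46.9 CPM in donor 2 of duplicate 2, against 29.5 to 32.1 CPM in the other PAC samples. *Csf1* in BPAC with EtOH was 2.21 CPM in donor 2 of duplicate 1, against 0.588 to 0.767 CPM in the others. The *Braf* difference in 4-HT change passed its own test for 3 members. It was -2.52 for *Il18*, -2.09 for *Ccl20* and -0.65 for *Cxcl16*, with the 8 cultures with the allele down in each. The *Il18* call held in all 32 alternatives, while *Ccl20* missed the threshold in 19 of 32 and *Cxcl16* in 24 of 32.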

How the results depend on the processing

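Of 1896 alternative values, 1454 member values from the fits and 260 counts of calls or donor differences kept their direction and their side of the threshold. The *Il18* calls in BAC, in BPAC, for the *Braf* difference and for the level with 4-HT passed in every alternative run. Counts of members called moved as follows, and the cause was not tested. Counts over all genes moved as well, so these moves are not read as particular to the members. For PAC, all genes gave 1511 higher and 1655 lower in the main fit and 2234 and 2483 with the block. Without the PAC duplicate 1 cultures they gave 22 and 26. For the *Braf* difference in change (3 in the main analysis), the replicate block and the duplicate as covariate each gave 5, DESeq2 gave 4, limma-voom and edgeR with DESeq2 size factors 2, while donor sums, duplicate 1 alone, duplicate 2 alone and thinning each gave 1, and leaving out a culture or donor gave 1 to 4. For BAC (5), donor sums and duplicate 1 alone gave 3, duplicate 2 alone 1, and leaving out a culture or donor 1 to 5, with 2 without BAC donor 1 and 1 without BAC donor 2. For PAC (1), the block gave 2, each duplicate alone and the set without the PAC duplicate 1 cultures gave 0, and leaving out a culture or donor gave 0 to 1. For the level with EtOH (0), DESeq2 gave 1 and leaving out a culture or donor 0 to 1. For BPAC (3), duplicate 2 alone gave 2 and leaving out BPAC donor 1 gave 4. For the level with 4-HT (7), duplicate 2 alone gave 3, duplicate 1 alone 5, donor sums 6 and leaving out a culture or donor 6 to 7. The block changed the calls of *Tnf* and *Cxcl5* given above and no other member's call.

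Signs turned for values that had not passed. For *Ccl20* in AC the value was 0.10 with library size alone, 0.38 in duplicate 2 alone and 0.027 when thinned, and -0.74 to 0.38 with a culture left out. For *Il18* in AC it was 0.16 with library size alone and 0.055 in duplicate 2 alone, and -0.18 to 0.055 with a culture left out. *Cxcl16* in PAC was -0.0031 in duplicate 2 alone and -0.0031 without the PAC duplicate 1 cultures. *Cxcl1* in BAC was -0.075 in duplicate 2 alone and -0.015 when thinned, and -0.14 to 0.15 with a culture or donor left out. *Csf1* in BAC was 0.044 with limma-voom, 0.061 with library size alone and 0.87 in duplicate 2 alone, and -0.47 to 0.31 with a culture or donor left out. *Tnf* in BPAC was 0.059 with library size alone and 0.14 in duplicate 2 alone, and -0.34 to 0.037 with a culture or donor left out. The *Cxcl1* *Braf* difference in change was -0.047 without the PAC duplicate 1 cultures and -0.078 to 0.18 with a culture or donor left out, and its level with 4-HT was 0.16 in duplicate 1 alone. With donors as units and without the PAC duplicate 1 cultures, the *Cxcl1* difference was -0.015 and that of *Csf1* was -1.45 (exact p = 0.0286), while *Cxcl5* was -1.62 (exact p = 0.0857). In duplicate 1 alone, that of *Cxcl5* was -2.23 (exact p = 0.0286), *Csf1* -1.15 (exact p = 0.143), *Cxcl16* -0.64 (exact p = 0.114) and *Ccl25* -0.34 (exact p = 0.0571), and in duplicate 2 alone, *Cxcl5* was -1.63 (exact p = 0.143), *Csf1* -0.94 (exact p = 0.114), and *Cxcl16* was -0.76 and *Tnf* -0.78 (exact p = 0.0571 for both). The members at few reads (*Cxcl1*, *Cxcl5*, *Ccl20*, *Csf1*) have the widest intervals, and the part of read depth and of spread between cultures in that width was not tested.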
